A study of Mus musculus with 6 samples.

Results

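Ribosome biogenesis genes encode the factors that transcribe, cut, modify and fold ribosomal RNA and assemble it with ribosomal proteins. A list of 50 such genes was chosen by name, with earlier results of these data known. A gene was read from an array probe set annotated with its symbol alone, and the probe set with the brightest mean was taken. By this rule 40 of the 50 were measured, of 11943 genes with such a probe set on the array. BOP1, DKC1, NOP56 and PPAN had only probe sets annotated with several symbols, and DDX18, EBNA1BP2, GNL3, NOB1, NOP58 and RIOK1 were not named by any probe set here, so these 10 were not analysed.

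The study compared myotubes with myoblasts of C2C12, a line of mouse muscle precursors that divide as myoblasts and, on differentiation, stop dividing and fuse into myotubes with many nuclei. Total RNA labelled with biotin was hybridised to 6 HG-U133A short-oligonucleotide arrays, 3 of myotubes cultured in 2.5% horse serum and 3 of myoblasts, whose medium the labels do not give. Myoblast array 3 was grouped by its description, as its title names no cell stage, and the numbering in that description stops at 2. The source field says myoblast for all 6 arrays, so the myotube arrays were grouped by their titles. No genotype, other treatment or time of differentiation is given. Nothing in the labels says that the 3 arrays of a group are separate cultures, so the spread behind each p-value is that of these arrays and may be technical. The probes were designed for human transcripts although mouse is the labelled organism, and which species the RNA came from is not settled here. Genes are named by the human design.

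Ribosomal RNA is made in the nucleolus by RNA polymerase I as a long precursor. Small nucleolar RNA particles guide its chemical modification, the small subunit processome cuts out and folds the part for the 40S subunit, and other factors build the 60S subunit before both are exported. Proliferating cells need many new ribosomes, and in many cell types the nucleolar machinery is known to be produced at a lower rate once cells stop dividing.

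Marker genes matched the labelled stages in part. Of the 10 tested myotube markers 9 were higher in myotubes by limma, with a summed signal of the 12 measured between 42037 and 50045 on myotube arrays and between 3612 and 11186 on myoblast arrays, while the markers CKM and MYOG were too dim to be tested. Of 12 markers of dividing cells 10 were lower in myotubes, with summed signals of 7955 to 11429 on myotube arrays and 31261 to 39350 on myoblast arrays. Of 10 fibroblast markers 8 were higher in myotubes, with sums of 424697 to 642012 on myotube arrays and 131539 to 299886 on myoblast arrays. All 4 measured leukocyte markers did not exceed the highest unspiked control on any array, and of the tested endothelial (1) and adipocyte (2) markers none was called, though 1, PECAM1, was higher at an unadjusted p under 0.05. Fewer cells of a type and less RNA per cell cannot be told apart in such bulk samples, and the part of these cell populations in the results below was not tested.

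The arrays did not fall evenly into groups. Across genes, Pearson's r was 0.988 between myoblast arrays 2 and 3 and 0.874 to 0.889 for the other pairs within a group. Between the groups it ran from 0.722 to 0.873. Myotube array 3 came nearest to the myoblast arrays, with 0.873, 0.86 and 0.866 for myoblast arrays 1, 2 and 3. These values describe the arrays, since genes are no replicates. The run records put the myotube arrays on one scan day and in one chip lot, and the myoblast arrays on another day and in other lots, so day and lot cannot be told apart from group. By runs of consecutive laboratory codes, which the records do not name as batches, the 3 myotube arrays and myoblast array 1 formed a first series and myoblast arrays 2 and 3 a second. A fit that takes the laboratory series as a block (below, the series block) sets the myotube arrays against myoblast array 1 alone, which differed from them in scan day and chip lot. Its values are given beside the results, and no batch by day or lot held both groups, so no value within such a batch could be had.

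Ribosome biogenesis genes were lower in myotubes where they changed. Of the 40 measured genes, all of which passed the filter on dim probe sets, 11 fell, none rose and 29 did not pass the threshold of limma's adjusted p (0.05). Over all 8149 genes tested the share called was 13.0%, with 7.12% lower and 5.89% higher in myotubes. At an unadjusted p under 0.05, 23 members were lower and 0 higher, where all genes gave 15.5% lower and 16.7% higher. The signals of the groups did not overlap in 23 members, all lower in myotubes, beside 16.3% lower and 18.5% higher over all genes.

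The member changes had a median of -0.61 on the log2(signal + 197) scale, with quartiles of -0.95 and -0.19, against a median of 0.12 and quartiles of -0.37 and 0.56 over all genes. A change below 0 was measured in 32 of the 40 members and in 43.5% of all genes. The shift was present on each myotube array. Set against the mean of the myoblast arrays, the median member stood at -0.67, -0.45 and -0.58 on myotube arrays 1, 2 and 3. The median of all genes on these was 0.11, 0.13 and 0.07. On myoblast arrays 1, 2 and 3 the median member stood at 0.03, 0 and 0.03. As that mean is their own, values near 0 are largely built in there. All 3 myotube arrays lay below myoblast array 1 in 28 of the 40 members, beside 26.8% of all genes, below myoblast array 2 in 26, beside 30.8%, and below myoblast array 3 in 26, beside 30.4%.

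The count of 11 depended on single arrays more than the median did. It was 4 without myotube array 1, 2 without myotube array 2, 2 without myoblast array 2 and 3 without myoblast array 3, and 12 without myoblast array 1. The share of all genes called lower moved alike, to 3.42%, 2.87%, 2.66%, 2.69% and 13.3% in the same order, while the members' median stayed between -0.53 and -0.66 in these fits. Under the series block the median was -0.55 and 34 of 40 changes were below 0, beside 50.2% of all genes. In that fit 1 member was called lower, NPM1, and 0 higher, where all genes gave 1.36% lower and 1.82% higher, so none of the 11 kept its call. With 3 arrays in each group an exact permutation test of 1 gene cannot go below a two-sided p of 0.1.

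**Figure D1:**
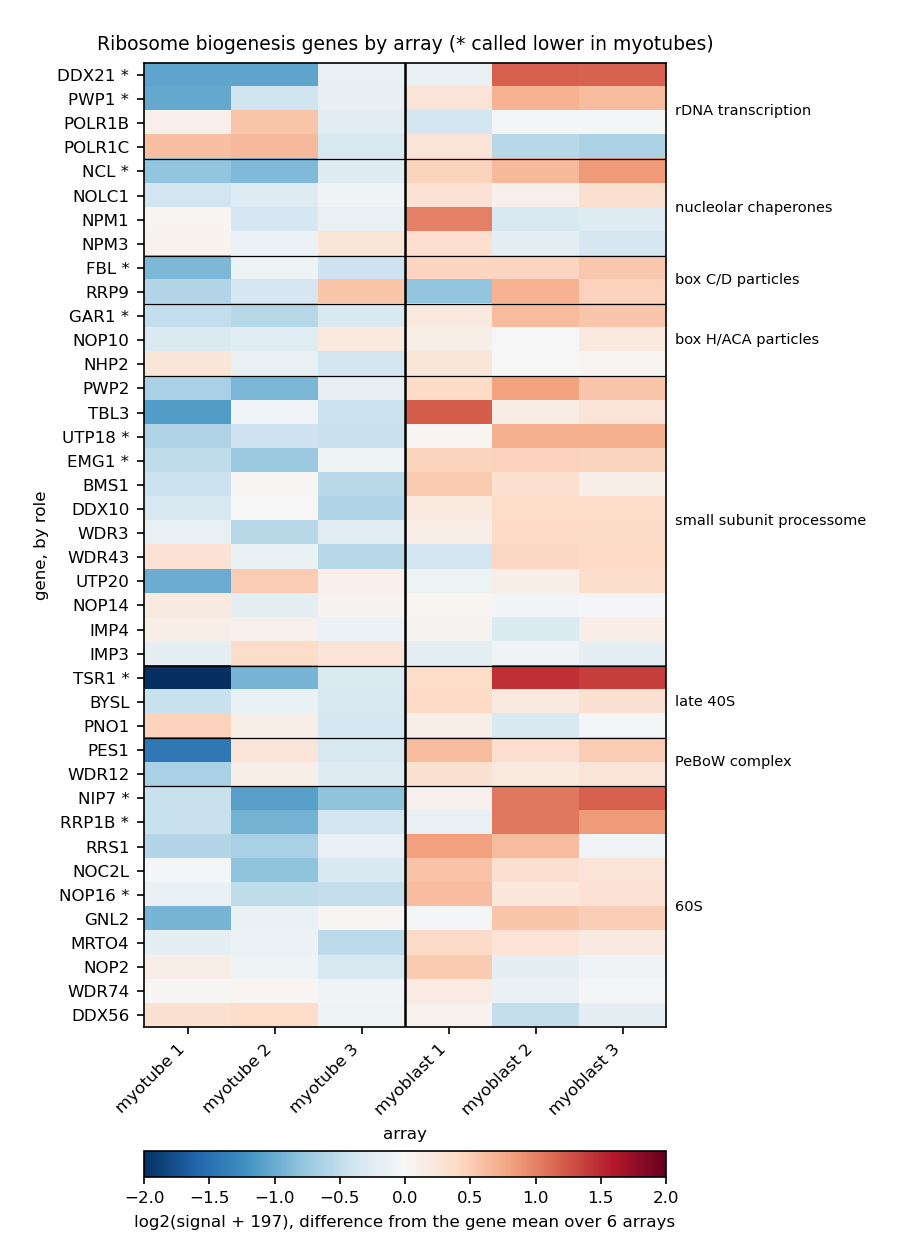
Each row is 1 of the 40 measured ribosome biogenesis genes, grouped by role, and each column 1 array, the 3 myotube arrays left of the 3 myoblast arrays. Colour is the log2(signal + 197) value minus the gene's mean over the 6 arrays, from -2 (blue) to 2 (red), and a star marks the 11 genes called lower in myotubes by limma. Blue prevails on the myotube side, most strongly for TSR1 on myotube array 1, and myoblast array 1 is paler than myoblast arrays 2 and 3 for DDX21, TSR1, NIP7 and RRP1B.

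Many ribosome biogenesis genes are known to carry an E-box with the letters CACGTG, a site that MYC with its partner MAX, and other factors, can bind. As the labels give mouse, the mouse promoters of the members were searched for it, in windows of 300 bases from 250 before to 50 after each gene's start, in RefSeq's table on build GRCm38.p6. The motif is its own reverse complement, so one search covers both strands. It was present in 8 of the 44 members that had a promoter in the table (18.2%), in 19 of 93 other ribosome biogenesis genes (20.4%), in 6 of 56 ribosomal protein genes (10.7%) and in 2187 of all 27025 genes (8.09%). Among the 11 genes called lower, 10 had a promoter and 2 of these held the motif, Tsr1 and Utp18, and among the 29 not called 6 of 25 did, Imp4, Nop2, Pes1, Pno1, Utp20 and Wdr43. The motif thus stood in promoters of genes that were called lower and of genes that were not. A match is a description of letters and not of a bound site.

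To show the motif in its setting, the 250 bases before the start are given, 5′ to 3′ on the gene's strand with the motif in capitals, for 1 called gene and 2 uncalled genes that hold it and for the called gene Ncl, whose window does not. Utp18 lies at chr11:93885767-93886016 on the minus strand with the motif starting at -20. Nop2 lies at chr6:125131633-125131882 on the plus strand with the motif at -60. Imp4 lies at chr1:34439579-34439828 on the plus strand with the motif at -121, and Ncl at chr1:86359456-86359705 on the minus strand.
Utp18: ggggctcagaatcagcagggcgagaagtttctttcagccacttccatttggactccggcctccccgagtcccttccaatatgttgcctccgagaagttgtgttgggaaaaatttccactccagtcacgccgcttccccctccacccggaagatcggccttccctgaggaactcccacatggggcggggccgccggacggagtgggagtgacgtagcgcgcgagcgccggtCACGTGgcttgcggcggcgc
Nop2: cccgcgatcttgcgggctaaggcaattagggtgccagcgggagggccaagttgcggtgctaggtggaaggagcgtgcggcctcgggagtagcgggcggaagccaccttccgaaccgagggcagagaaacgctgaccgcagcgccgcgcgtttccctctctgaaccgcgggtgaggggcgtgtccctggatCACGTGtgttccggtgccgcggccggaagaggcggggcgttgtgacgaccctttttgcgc
Imp4: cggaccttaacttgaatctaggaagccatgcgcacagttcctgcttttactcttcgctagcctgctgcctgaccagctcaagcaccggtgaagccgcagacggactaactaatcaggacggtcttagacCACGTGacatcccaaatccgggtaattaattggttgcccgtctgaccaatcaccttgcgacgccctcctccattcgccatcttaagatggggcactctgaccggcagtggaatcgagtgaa
Ncl: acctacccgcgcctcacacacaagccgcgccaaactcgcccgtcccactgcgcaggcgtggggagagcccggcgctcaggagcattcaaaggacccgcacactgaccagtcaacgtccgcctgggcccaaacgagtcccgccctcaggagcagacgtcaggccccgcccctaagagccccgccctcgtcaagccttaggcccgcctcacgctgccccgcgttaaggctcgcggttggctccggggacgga

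Among genes for transcription of ribosomal DNA, 2 of 4 fell. The counts by role, here and below, are of few genes. The shares over all genes were 7.12% called lower, 43.5% with a change below 0 and 16.3% lower without overlap. DDX21, an RNA helicase that couples RNA polymerase I transcription to processing, had signals of 3095, 3128 and 6031 in myotubes, against 6072, 15555 and 15447 in myoblasts. Myotube array 3 lay just below myoblast array 1, and the other arrays were far apart. The change was -1.50 ± 0.37 (log2, SE), 2.83-fold lower, with a limma adjusted p of 0.0255. PWP1, a WD-repeat protein that binds ribosomal DNA chromatin, had 2744, 4354 and 5106 in myotubes, against 6911, 9461 and 9081 in myoblasts, a change of -1.06 ± 0.24 (2.08-fold lower, adjusted p = 0.0181). The groups did not overlap for either gene. Of the other 2 PWP1 probe sets neither was called, with changes of -0.57 and -0.21, and the mean of all 3 gave -0.61 (limma adjusted p = 0.0706). The 2 subunits of RNA polymerase I among the members did not pass the test. POLR1B, its second largest subunit, had 0.29 (adjusted p = 0.493). POLR1C, which RNA polymerase III shares, had 0.62 (adjusted p = 0.21), and its other probe set gave 0.13. Outside the members the subunit POLR1G was called lower (-1.72, limma adjusted p = 0.0177), as given below. The calls of DDX21 and PWP1 ended without any one of myotube arrays 1 and 2 and myoblast arrays 2 and 3. In these fits the limma adjusted p was at most 0.127 for DDX21 and 0.0662 for PWP1. With the series block the changes were -0.62 (adjusted p = 0.409) for DDX21 and -0.78 (adjusted p = 0.236) for PWP1.

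Of the 4 abundant nucleolar chaperones 1 fell. NCL encodes nucleolin, which binds the nascent precursor RNA and ribosomal DNA chromatin. Its signals were 7420, 6890 and 10836 in myotubes, against 17617, 20325 and 23401 in myoblasts. All 3 myotube arrays lay well below the lowest myoblast array, and the change was -1.29 ± 0.21 (2.44-fold lower, limma adjusted p = 0.00474). NCL was the only member whose call remained whichever of the 6 arrays was left out (adjusted p at most 0.0371), and under the series block it stood at -1.08 (adjusted p = 0.0684).

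NPM1, nucleophosmin, was the brightest member and its 3 probe sets differed. The brightest gave 39457, 30374 and 34328 in myotubes, against 77369, 30829 and 31924 in myoblasts, so that myoblast array 1 alone stood apart and the change was -0.30 ± 0.35 (adjusted p = 0.57). The second, of the _x_at type, had 15466, 15279 and 23444 in myotubes, against 29052, 30233 and 28716 in myoblasts (-0.72, adjusted p = 0.0644 over probe sets). The dimmest had 6196, 4353 and 5388 in myotubes, against 10935, 12178 and 11579 in myoblasts (-1.11, limma adjusted p = 0.00538). The 2 dimmer sets were thus lower on every myotube array, while the brightest overlapped. With the series block, which rests on myoblast array 1, the brightest set gave -1.16 (adjusted p = 0.02), and the mean of the 3 sets over all arrays gave -0.71 (adjusted p = 0.0416). Probe sets of the _x_at and _s_at types can be shared by several transcripts, all 3 are of these types, and NPM1 has many near-identical pseudogene copies, so its level is uncertain. NOLC1, a chaperone of small nucleolar particles also called Nopp140, had a change of -0.47 (adjusted p = 0.107) with groups that did not overlap, though its other 2 probe sets gave 0.05 and -0.02. The nucleophosmin relative NPM3 had 0.12 (adjusted p = 0.713).

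**Figure D2:**
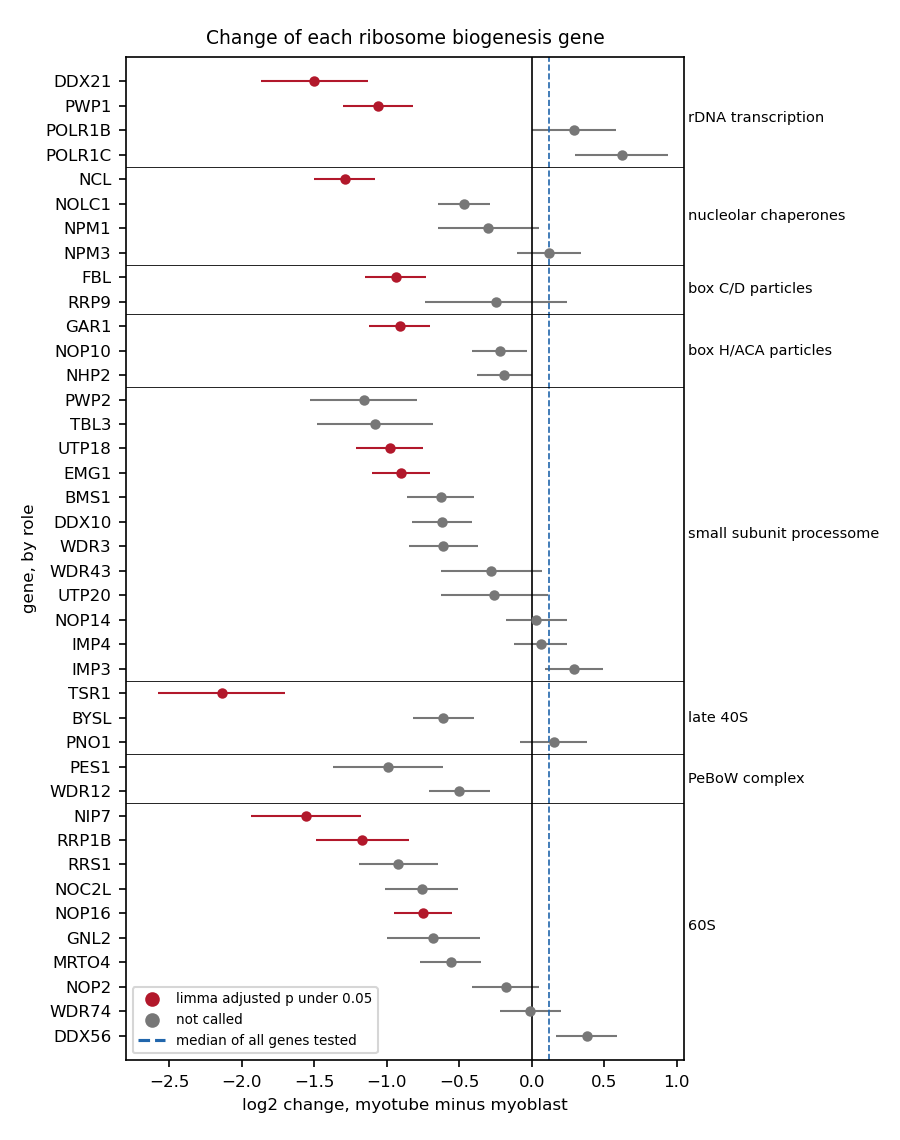
Points are the log2 change, myotube minus myoblast, of each of the 40 genes, grouped by role, with bars of 1 SE from limma, red where the adjusted p was under 0.05 and grey otherwise. The solid line is 0 and the dashed line the median of all genes tested, 0.12. The 11 called genes lie between -2.14 (TSR1) and -0.75 (NOP16), and 8 of the 40 lie above 0, with POLR1C at 0.62 the highest.

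In the particles that guide modification, 1 gene fell in each class. FBL, fibrillarin, is the methyltransferase of box C/D particles, which methylate ribosomal RNA on the ribose. It had signals of 4002, 7086 and 5664 in myotubes, against 10321, 10344 and 11118 in myoblasts. The myoblast arrays lay close together and above every myotube array, and the change was -0.94 ± 0.21 (1.91-fold lower, limma adjusted p = 0.018). RRP9, a protein of the U3 particle of the same class, was dim and overlapped between the groups, with a change of -0.25 (adjusted p = 0.737). GAR1, a core protein of box H/ACA particles, which convert uridine to pseudouridine, had 1647, 1538 and 1897 in myotubes, against 2762, 3803 and 3593 in myoblasts. Its groups were apart by -0.91 ± 0.21 (1.88-fold lower, adjusted p = 0.0182). The other core proteins measured, NOP10 and NHP2, were brighter and overlapped, at -0.22 (adjusted p = 0.436) and -0.19 (adjusted p = 0.515). Leaving out myotube array 1 or either of myoblast arrays 2 and 3 ended the FBL call (limma adjusted p at most 0.0645), and leaving out any one of myotube arrays 1 and 2 and myoblast arrays 2 and 3 ended the GAR1 call (at most 0.119). With the series block FBL stood at -0.90 (adjusted p = 0.145) and GAR1 at -0.65 (adjusted p = 0.215).

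The small subunit processome was measured in 12 genes, of which 2 fell and 9 had a change below 0, with a median of -0.62. Over all genes 7.12% were called lower and 43.5% had a change below 0. UTP18, a WD-repeat subunit, had signals of 1457, 1683 and 1649 in myotubes, against 2398, 3929 and 3908 in myoblasts, a change of -0.98 ± 0.23 (1.97-fold lower, limma adjusted p = 0.0222). EMG1, a pseudouridine methyltransferase of 18S ribosomal RNA, had 2270, 1902 and 3115 in myotubes, against 4605, 4644 and 4628 in myoblasts, a change of -0.90 ± 0.20 (1.87-fold lower, adjusted p = 0.0186). For both genes every myotube array lay below every myoblast array, and for EMG1 the 3 myoblast arrays were almost equal. The second UTP18 probe set fell below the filter and was not lower in myotubes, with 526, 602 and 315, against 356, 361 and 315 in myoblasts. The mean of both gave -0.34 (adjusted p = 0.338). Leaving out any one of myotube arrays 1 and 2 and myoblast arrays 2 and 3 also ended the calls of UTP18 (limma adjusted p at most 0.129) and EMG1 (at most 0.078). With the series block UTP18 stood at -0.54 (adjusted p = 0.278) and EMG1 at -0.90 (adjusted p = 0.137).

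Of the 12 processome genes 7 had groups that did not overlap, all lower in myotubes, beside 16.3% of all genes. Of these, 5 did not pass the test. PWP2, a scaffold of the processome with WD repeats, had the largest change of these, -1.16 (adjusted p = 0.0646). Its 3 myotube signals and that of myoblast array 1 did not exceed the highest unspiked control on the same array, a measure of background, so no fold is settled. With the myotube signals raised to those controls it was 1.19-fold lower, with the myoblast signals as measured. The mean of its myotube signals, 317, lay under the filter's mean signal of 474, so PWP2 entered the test through the myoblast arrays. The others were TBL3, another WD-repeat scaffold, at -1.08 (adjusted p = 0.102), the GTPase BMS1 at -0.63 (0.091), the helicase DDX10 at -0.62 (0.0798) and the WD-repeat protein WDR3 at -0.61 (0.116). TBL3 did not exceed the highest unspiked control on 2 myotube arrays, nor WDR3 on 1, so the size for TBL3 is not settled either. The remaining 5 overlapped between the groups, with -0.28 for WDR43, -0.26 for UTP20, 0.03 for NOP14, and 0.06 and 0.29 for IMP4 and IMP3, which bind the U3 particle together (adjusted p from 0.325 to 0.935).

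Of 3 factors that finish the 40S subunit 1 fell, and it had the largest change of the 40 genes in the fit with all arrays. TSR1, an assembly factor that sits on the late 40S precursor and resembles a GTPase, had signals of 286, 823 and 1399 in myotubes, against 2312, 5163 and 4858 in myoblasts. The groups did not overlap, though myotube arrays 1 and 2 did not exceed their highest unspiked control, and the spread was wide within each group. The change was -2.14 ± 0.44 (4.42-fold lower, limma adjusted p = 0.0119). The other TSR1 probe sets did not agree in sign. The second in brightness, of the _x_at type, which can bind related transcripts, gave 2257, 2528 and 1741 in myotubes, against 1766, 839 and 697 in myoblasts (0.94, adjusted p = 0.0838), and the third gave 1026, 723 and 771 in myotubes, against 1176, 1730 and 1930 in myoblasts (-0.79, adjusted p = 0.0978). The mean of the 3 sets gave -0.66 (adjusted p = 0.0622), so the size of the TSR1 change, and its call, depended on the probe set. The call was lost without myotube array 2 (adjusted p = 0.0616) and with the series block (-1.44, adjusted p = 0.221). BYSL, bystin, which binds the 40S precursor, stood at -0.61 (adjusted p = 0.0865) with groups that did not overlap. PNO1, a partner of the nuclease that makes the final cut of 18S ribosomal RNA, had 0.15 (adjusted p = 0.682) and -0.70 at its dimmer probe set.

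The PeBoW complex, needed to process the RNA of the 60S subunit, was measured in 2 of its 3 proteins and neither was called, though both were lower at an unadjusted p under 0.05. PES1, pescadillo, had signals of 498, 2044 and 1303 in myotubes, against 2694, 2154 and 2472 in myoblasts, a change of -0.99 ± 0.38 (limma adjusted p = 0.108). Myotube array 2 came close to myoblast array 2, and myotube array 1 was far below the other arrays and did not exceed its highest unspiked control. WDR12 stood at -0.50 (adjusted p = 0.138), also without overlap. Without myotube array 1 the changes were -0.52 for PES1 and -0.31 for WDR12.

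Of 10 other 60S genes 3 fell and 9 had a change below 0, with a median of -0.72, where all genes gave 7.12% called lower and 43.5% below 0. NIP7, which binds RNA of the 60S precursor in yeast, had signals of 539, 275 and 373 in myotubes, against 861, 1882 and 2091 in myoblasts. No myotube array exceeded its highest unspiked control, nor did 1 myoblast array. The mean of its myotube signals, 396, lay under the filter's mean signal of 474, so it entered the test through the myoblast arrays. Without the filter its limma adjusted p was 0.0384. The fitted change was -1.56 ± 0.38 (limma adjusted p = 0.0247), a size that such dim signals do not settle. With the myotube signals raised to the controls and the myoblast signals as measured, the gene was 1.83-fold lower. RRP1B, a nucleolar protein related to yeast Rrp1, had 1498, 1011 and 1600 in myotubes, against 1903, 4612 and 3984 in myoblasts, a change of -1.17 ± 0.32 (2.26-fold lower, adjusted p = 0.0372). Its signal on myotube array 2 did not exceed the highest unspiked control there. Its second probe set gave -0.96, which was not called. NOP16, a nucleolar protein known from the 60S precursor in yeast, had 2975, 2251 and 2294 in myotubes, against 5134, 3844 and 4063 in myoblasts, a change of -0.75 ± 0.20 (1.68-fold lower, adjusted p = 0.0334). The groups of all 3 genes were apart, with myoblast array 1 nearest to the myotubes for NIP7 and RRP1B and farthest from them for NOP16. Further NOP16 probe sets gave -0.89 and -0.59, neither called. The fourth lay below the filter and was mostly higher in myotubes, with 809, 759 and 354, against 566, 45 and 26 in myoblasts. The mean of all NOP16 sets gave -0.25 (adjusted p = 0.505).

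These calls were less stable than that of NCL. NIP7 was not called without myotube array 2 or either of myoblast arrays 2 and 3 (limma adjusted p at most 0.158), and RRP1B without any one array except myoblast array 1 (at most 0.164). NOP16 was not called without any one of myotube arrays 2 and 3 and myoblast arrays 2 and 3 (at most 0.111), or after quantile normalization (-0.67, adjusted p = 0.0738). With the series block NIP7 stood at -0.86 (adjusted p = 0.302), RRP1B at -0.44 (0.508) and NOP16 at -0.99 (0.0687).

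Of the 7 uncalled 60S genes 3 had groups apart. RRS1, which brings the 5S ribosomal RNA particle into the precursor, stood at -0.92 (limma adjusted p = 0.0517). It would have passed without myotube array 3 or without myoblast array 3 (adjusted p = 0.0471 and 0.04). NOC2L, a nucleolar protein related to a yeast 60S export factor, stood at -0.76 (adjusted p = 0.0709) and MRTO4, which holds the place of the stalk protein, at -0.56 (adjusted p = 0.103). The others overlapped between the groups. They were the GTPase GNL2 at -0.68 (adjusted p = 0.164), the ribosomal RNA methyltransferase NOP2 at -0.18 (0.601), WDR74 at -0.01 (0.98, and -0.68 at its dimmer probe set, also uncalled) and the helicase DDX56 at 0.38 (0.239).

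**Figure D3:**
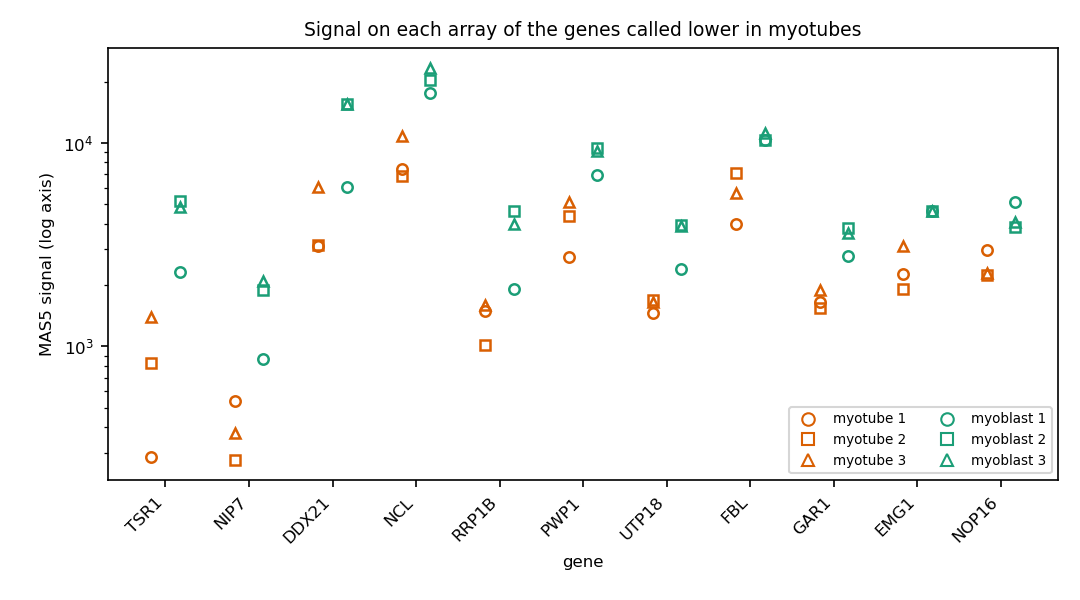
Deposited MAS5 signal on a log axis of the 11 called genes, ordered by the size of the change, with myotube arrays (orange, left) and myoblast arrays (green, right) and a symbol for each replicate number. Every orange point lies below every green point of its gene. Myoblast array 1, the green circle, is the lowest myoblast array by a wide gap for TSR1, NIP7, DDX21, RRP1B and UTP18.

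The 11 called genes differed in how the myoblast arrays spread. Myoblast array 1 lay more than 0.5 (log2) below the mean of myoblast arrays 2 and 3 in 5 of the 11, by -1.32 for DDX21, -1.09 for RRP1B, -1.05 for TSR1, -1.04 for NIP7 and -0.67 for UTP18, and in none did it lie that far above. Over the 40 members it lay that far below in 8 and above in 6, and over all genes below in 18.3% and above in 26.7%. In the other 6 called genes, NCL, PWP1, FBL, GAR1, EMG1 and NOP16, the 3 myoblast arrays were within that limit. Among the myotubes, array 3 was higher than the mean of arrays 1 and 2 by more than 0.5 in 5 of the 11, by 1.19 for TSR1, 0.91 for DDX21, 0.59 for NCL and 0.54 each for EMG1 and PWP1. The median of this gap was 0.1 over the 40 members and 0 over all genes, whose share above 0.5 was not counted. Among the uncalled members it ran both ways, from 1.01 for RRP9 to -0.95 for POLR1C. The cause of these gaps was not tested.

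The changes of all genes varied with brightness, and the members were mostly of middle to high rank. Between 50 and 75 percent of the brightness ranks the 14 members had a median of -0.70, against 0.02 for all genes there, and 4 were called lower, where all genes gave 7.76%. Between 75 and 95 percent the 14 members had -0.33, against -0.18, and 5 were called, where all genes gave 17%. Members were lower than the median of all genes of like brightness in each of the 5 bins, the smallest gap being that between 75 and 95 percent. The part of this trend in the counts was not tested further.

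Ribosome biogenesis genes outside the 50 were mostly lower as well. The list of these was chosen with earlier results of these data known, so it gives no independent support. Over all genes 7.12% were called lower, 15.5% were lower at limma's unadjusted p under 0.05 and 43.5% had a change below 0. Of a further list of 117 genes, 79 were tested, 16 fell, none rose (29 lower and 0 higher at an unadjusted p under 0.05), and 63 had a change below 0, with a median of -0.45. The largest changes among the called were those of LAS1L, part of the complex that cuts the spacer in the 60S precursor, POLR1G, a subunit of RNA polymerase I, C1QBP, a mainly mitochondrial protein also listed for the nucleolus, EXOSC7, a subunit of the RNA exosome, and ABCE1, which splits ribosomes for recycling. ABCE1 had signals of 1996, 1802 and 3250 in myotubes, against 5655, 7851 and 7639 in myoblasts (-1.54 ± 0.24, limma adjusted p = 0.00372). C1QBP had a change of -1.66 ± 0.29 (adjusted p = 0.00631). LAS1L had 193, 308 and 166 in myotubes, all at or below the controls, against 1492, 1312 and 1406 in myoblasts, and was at least 1.71-fold lower (adjusted p = 0.00559). Its myotube signals all lay under the filter's mean signal of 474, so it entered the test only through the myoblast arrays. Without the filter its limma adjusted p was 0.00892. These 3 kept their calls whichever array was left out, but with the series block only LAS1L did (-2.02, adjusted p = 0.0445), while C1QBP stood at -1.07 (adjusted p = 0.116) and ABCE1 at -1.24 (adjusted p = 0.0726). POLR1G (-1.72, adjusted p = 0.0177) and EXOSC7 (-1.57, adjusted p = 0.0159), both at or below the controls on myotube arrays 1 and 2, lost theirs when any one of myotube arrays 1 and 2 and myoblast arrays 2 and 3 was left out (at most 0.0957 and 0.0746) and under the series block, where their changes were -1.63 and -1.65. The mean of the EXOSC7 probe sets gave -0.59 (limma adjusted p = 0.196), so its size and call depended on the probe set. The count of 16 became 7 without myotube array 1, 6 without myotube array 2, 4 without myoblast array 2, 4 without myoblast array 3 and 2 with the series block. The share of all genes called lower fell alike, to 3.42%, 2.87%, 2.66%, 2.69% and 1.36% in the same order.

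Ribosomal protein genes, whose products the biogenesis factors assemble, were not called in either direction. Of 51 tested, 9 were higher and 0 lower at limma's unadjusted p under 0.05, beside 16.7% and 15.5% of all genes. As deposited, 50 had a change above 0 with a median of 0.57. After quantile normalization 30 did with a median of 0.08, and with the series block 20 did with a median of -0.12. The shift was thus close to 0 under one rescaling and its sign turned under the block. Centring on the 75th percentile left 50 above 0 with a median of 0.53. Without myoblast array 1, 42 of the 51 were called higher with a median of 0.90, in a fit that called 1269 of all 8149 genes higher. RPL18 had signals of 47839, 63963 and 52465 in myotubes, against 39203, 30222 and 32790 in myoblasts (0.68, limma adjusted p = 0.0817), and RPS28 had 0.87 (adjusted p = 0.0829). Quantile normalization left the median of the ribosome biogenesis members at -0.60. The 4 tested ribosomal protein paralogs had no call, with RPL39L at -0.79 (adjusted p = 0.0977) and RPL26L1 at -0.42 (adjusted p = 0.184) at the smallest p.

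**Figure D4:**
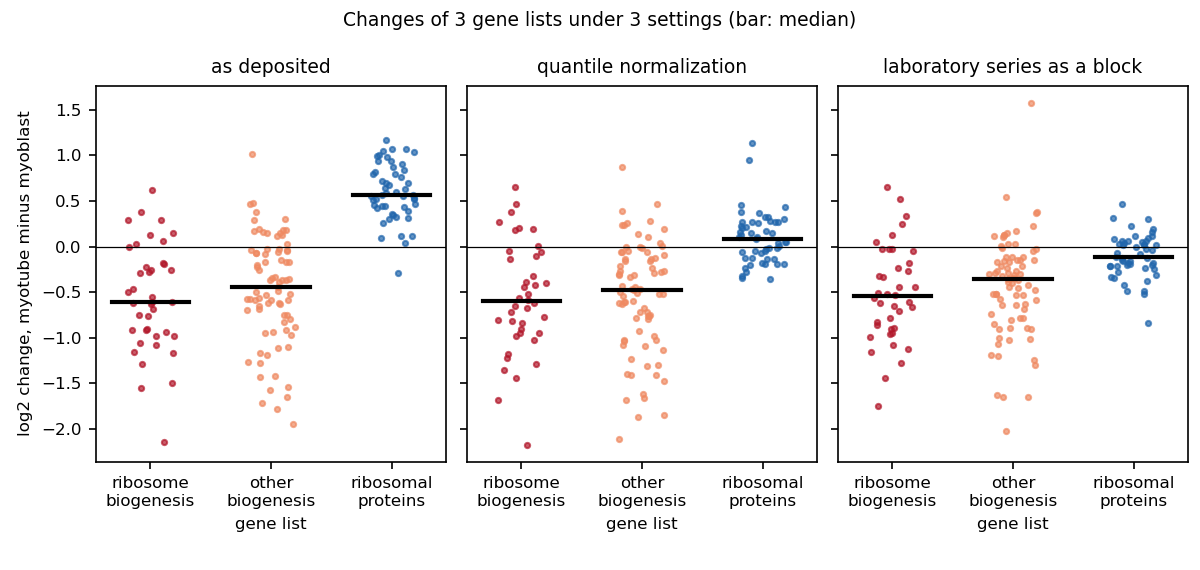
Each point is the log2 change, myotube minus myoblast, of 1 gene, and bars are medians, for the ribosome biogenesis genes (red), other ribosome biogenesis genes (orange) and ribosomal protein genes (blue). From left to right the values are as deposited, after quantile normalization and under the series block. The ribosome biogenesis medians are -0.61, -0.60 and -0.55, and the ribosomal protein medians 0.57, 0.08 and -0.12.

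MYC, a transcription factor known to promote ribosome biogenesis, had signals of 3309, 3386 and 4653 in myotubes, against 6553, 5286 and 5142 in myoblasts. The groups did not overlap, and the change of -0.57 ± 0.19 did not pass (limma adjusted p = 0.0801). None of the 5 tested genes of the MYC network was called. At limma's unadjusted p under 0.05, 2 were lower and 0 higher, beside 15.5% and 16.7% of all genes. These were MYC and MLX, the latter at -0.46 (adjusted p = 0.141), though the mean of the MLX probe sets gave -0.01 (adjusted p = 0.98). Of 13 genes of RNA polymerase III and transfer RNA transcription, which also makes 5S ribosomal RNA, 1 fell, a share near the 7.12% of all genes. The called gene was POLR3G, a polymerase III subunit of proliferating cells (limma adjusted p = 0.0439). It had 383, 224 and 164 in myotubes, all at or below the controls, against 544, also below its control, 1481 and 1481 in myoblasts. As its myotube signals all lay under the filter's mean signal of 474, it entered the test only through the myoblast arrays. With the myotube signals raised to the controls it was 1.36-fold lower, which is no floor. That call was lost with no filter on dim probe sets (adjusted p = 0.0623), without any one array except myoblast array 1 (adjusted p at most 0.23) and with the series block (-0.74, adjusted p = 0.483).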

How the data were processed

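The deposited values were an intensity, 1 linear signal per probe set, made by the authors with MAS5, per the submitters' processing notes (version not given in the sources used here). Of 22283 probe sets, 68 were controls, 19065 had 1 symbol, 1043 several and 2107 none, and 26 of these, for sex-linked genes, were left out. Array run records gave chip lot, scan day and laboratory code, and the titles' replicate numbers were used where 3 records, all myoblast, gave other numbers. The highest of 27 unspiked controls marked background. It was 731.4, 1040.2 and 520.1 on myotube arrays 1, 2 and 3, and 919.9, 326.5 and 251.5 on myoblast arrays 1, 2 and 3. The geometric mean of the spiked controls was 71439, 33504 and 12320 on the myotube arrays and 48119, 3539 and 4275 on the myoblast arrays. Both measures were thus lowest on myoblast arrays 2 and 3, and the part of these gaps in the results was not tested. Depth has no counterpart here, and the number of arrays limits precision.

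Signals were taken as log2(signal + 197), 197 being the 25th percentile of the table, so folds understate changes of dim genes. Each gene was read at its brightest probe set, and those with a mean under the 40th percentile (474) were dropped. As that mean was over all 6 arrays, a gene dim in 1 group could pass through the other. Groups were compared with limma 3.58.1 (R 4.3.3; lmFit and eBayes with a variance trend, two-sided; statmod 1.5.0) and Benjamini-Hochberg adjustment over 8149 genes at 0.05. Values after ± are SEs. Values of further probe sets came from a fit over all probe sets. Members and lists were chosen with earlier results of these data known. Every measured member was named, with signals per array for called ones or, in a role with none, the one with the smallest p; in the other lists up to 5 called genes were named, or the 2 with the smallest p. On simulated data for this comparison (8149 genes), the fit recovered 63 of 200 genes made to differ by 1 (log2), beside 6 false calls, and 186 of 200 made to differ by 2, beside 10. In all, 19 alternatives were tried: pseudocount, filter, scaling, variance trend, blocks, averaging, probe sets, and leaving out arrays. For genes at background on all myotube arrays, folds were also taken with those signals raised to the highest control, a choice made after seeing the data, as was the first laboratory series alone. Same-numbered arrays were not treated as pairs, as no label pairs them. Their correlations of deviations (0.26, -0.18 and 0.37) cannot settle it with 3 arrays in each group. Promoters came from RefSeq, matched by symbol. Figures used matplotlib 3.10.9.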

Additional observations from a re-analysis of the deposited data

How the results depend on the processing

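The direction of the ribosome biogenesis genes was steadier than their calls. Over the 19 alternatives no member was called higher, the median change ranged from -0.66 to -0.48, and for the 11 called members and the 12 named genes of other lists no called change reversed: of 437 values 312 kept their side of the threshold, 121 lost it and 4 newly passed. Some of these settings cannot move the median. With no filter, without the variance trend, with the replicate block or over all probe sets, each member's change stays as in the main fit. The series block and the first laboratory series alone give the same changes as each other. The count of 11 members called lower was 11 with a pseudocount of 98 or 653, no filter, quantile normalization, 75th percentile centring or all probe sets, and 9 with the mean of probe sets. It was 5 without the variance trend, where DDX21, EMG1, FBL, NOP16, PWP1, RRP1B and UTP18 were lost and PWP2 was gained. It was 1 with the laboratory series as a block, 1 with chip lot as a random block (NCL), 2 with myoblast arrays 2 and 3 averaged (NCL and TSR1), and 1 in the first laboratory series alone, an alternative added after seeing the data which has to give the single myoblast array the spread of the myotube arrays. Leaving out each array gave 2 to 12. With the replicate block it was 13, but no label pairs the same-numbered arrays. NCL was called in 17 of the 19, and 4 uncalled members, RRS1, NOC2L, NPM1 and PWP2, were called in 1 or more. The series block and the random lot also lowered the calls among all genes, to 259 and 322, beside 1060. The causes were not tested. Signals of NIP7 and PWP2 did not exceed the highest unspiked control on 4 of 6 arrays, and those of RRP9 on 3. The same held on at least 1 array for TSR1, TBL3, WDR43, RRP1B, NOC2L, GNL2, PES1, POLR1B, WDR3 and UTP20.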
